A study of Mus musculus with 24 samples.

Results

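The genes described here are Abca1 and 6 other genes that liver X receptors (LXR) are known to switch on, most of them for sterol export or for limiting its uptake: Abcg1, Abcg5, Abcg8, Mylip, Arl4c and Lpcat3. They were taken by gene name from the ileum and liver tables of the study, are 7 of 40481 genes in those tables, and were followed through all 24 libraries. All 7 passed the filter on low values in both tissues. The lowest member count in any library was 77 reads and the highest 14027.

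The mice were C57BL/6 animals, and every group had undergone a 75% intestinal (small bowel) resection, so no group had an intact bowel. Control mice had the genotype Abca1 fl/fl and are called floxed below. The others were Abca1 fl/fl X Villin-Cre, called Villin-Cre below, in which a promoter active in intestinal epithelium drives the recombinase that deletes Abca1. The liver and the ileal cells outside the epithelium are not the intended site of the deletion. Mice of each genotype received vehicle (0.5% carboxymethyl cellulose) or GW3965, a synthetic LXR agonist, by mouth at 1 mg/kg/day, 2 times weekly in the last 5 of the 10 weeks after surgery. Ileum and liver were sequenced, which gives 8 groups with 3 libraries each. The labels give neither age nor sex, and they do not say which libraries come from which animal. The question the study names is whether a low oral dose activates LXR in the intestine in particular.

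LXR sense oxysterols, oxidised forms of cholesterol, and bind DNA together with a retinoid X receptor at paired half-sites. Their classic response is export. ABCA1 hands cholesterol and phospholipid to apolipoprotein A-I to start a high-density lipoprotein particle, and in the intestine and liver it is a main source of that lipoprotein. ABCG1 passes cholesterol on to such particles, ABCG5 and ABCG8 work as a heterodimer that returns sterols to the gut lumen and to bile, and MYLIP (also called IDOL) marks the LDL receptor for degradation.

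The promoters are shown first, because the element through which LXR acts on Abca1 lies close to its start site and because Abcg5 and Abcg8 share a single short stretch. The first sequence is the 150 bases before the Abca1 start (RefSeq, GRCm38.p6, chr4:53159896-53160045, minus strand, 5′ to 3′). Capitals mark its best match to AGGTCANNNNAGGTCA, the direct repeat of 2 half-sites with a 4-base spacer (DR4), which here reads on the opposite strand.
Abca1 upstream: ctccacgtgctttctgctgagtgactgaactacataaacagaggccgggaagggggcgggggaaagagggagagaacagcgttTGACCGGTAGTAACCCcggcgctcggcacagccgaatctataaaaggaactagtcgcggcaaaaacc
The match lies at -67 to -52 from the start, and TATAAA begins at -29. Abcg5 and Abcg8 are read in opposite directions from start sites 110 bases apart, and the second sequence is all 109 bases between them (chr17:84683012-84683120, plus strand, which runs from Abcg5 to Abcg8). Capitals mark both copies of the motif AGATAA, searched on both strands and read here on the opposite strand as TTATCT.
Abcg5 and Abcg8 shared stretch: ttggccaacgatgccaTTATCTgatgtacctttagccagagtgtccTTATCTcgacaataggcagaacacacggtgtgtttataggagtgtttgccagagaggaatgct
AGATAA is the core bound by GATA factors and was picked after the sequence had been read. At least 1 copy is in 3.98% of RefSeq windows of that length and at least 2 copies in 0.186%.

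The best DR4 match in the 250 bases before each start was compared across members, scoring the 12 half-site bases on both strands. RefSeq windows were given for 6 of the 7 genes, and Abcg1 was not searched. Capitals below mark bases equal to the DR4, and the others are mismatches or spacer.
Abca1: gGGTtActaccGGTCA
Arl4c: cGGTCtcccggGGTCA
Abcg5 and Abcg8: AGGaCActctgGcTaA
Lpcat3: AGGTaggaagAGGgCg
The Abca1 element (chr4:53159947-53159962) and the Arl4c element (chr1:88702241-88702256) each matched at 9 of 12 bases, and 18.5% of 32817 RefSeq windows hold a match at least as good. The element in the shared Abcg5 and Abcg8 stretch (chr17:84683043-84683058) and that of Lpcat3 (chr6:124663005-124663020) matched at 8 of 12, a level that 70.6% of windows reach. A second RefSeq start of Abcg8 lies inside Abcg5, and its window also reached 8 of 12. Mylip had no match above 6 of 12 in this window. These matches describe letters and were not tested as binding sites.

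Levels are given as CPM, the reads of a gene divided by all assigned reads of its library, on a fixed scale, and changes as log2 fold changes ± SE on the log2(CPM + 0.5) scale, with adjusted p from limma over all genes tested, which were 18656 for ileum and 17520 for liver. A change is called, and "rose" or "fell" is written, at an adjusted p under 0.05. The ileal libraries held 17 to 24.2 M reads assigned to genes and the liver libraries 26.5 to 32.3 M. Libraries of a group mostly lay close together, with a variance of 2.61 to 3.96 times that of Poisson counting in the ileum and 2.59 to 3.27 times in the liver. Mates of a pair were counted singly, so counting error alone already exceeds that of Poisson counting of reads. Replicate 3 of floxed mice given GW3965 stood apart from its group in the ileum (7.19 and 7.52 times), and replicate 1 of the same treatment group did so in the liver (8.70 and 8.89 times). Since nothing shows that close libraries came from separate animals, the p-values rest on a spread between libraries that may be only technical. The calls are therefore set beside a fit in which close libraries are averaged, which leaves 1 unit per group and 2 in floxed GW3965, and has little power. All 10 enterocyte markers were found in the ileum and all 10 hepatocyte markers in the liver, none at 0 in any group.

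**Figure D1:**
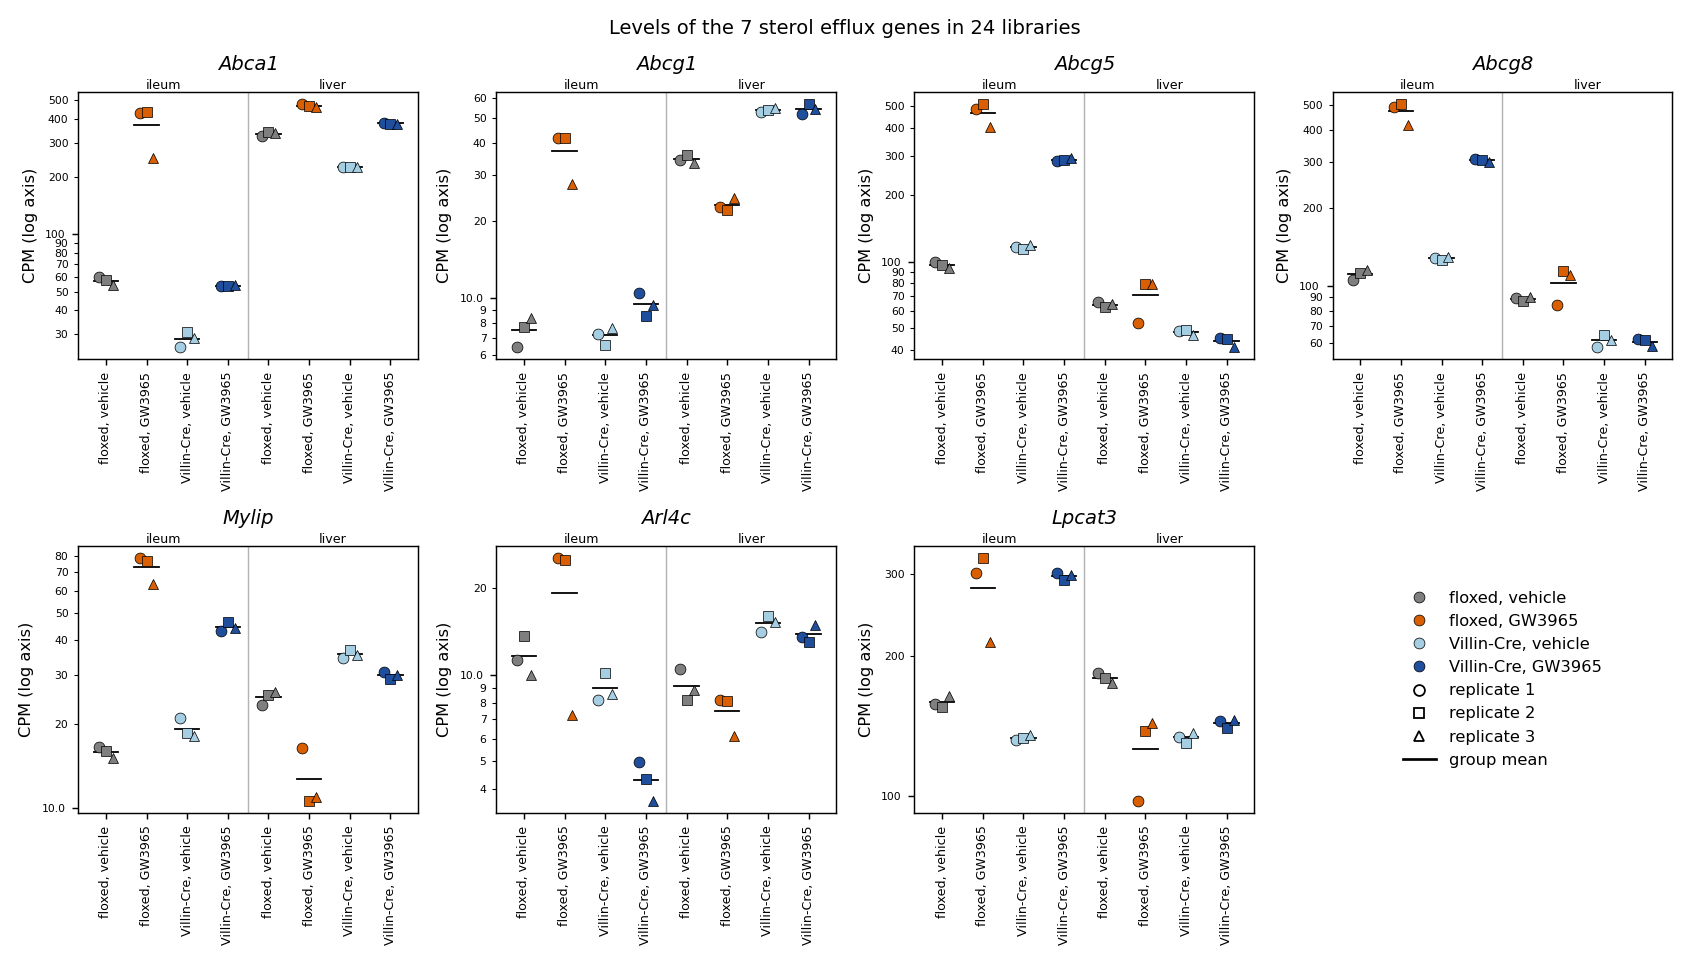
CPM (log axes, which differ between panels) of the 7 genes in each of the 24 libraries, by tissue, genotype and treatment; symbols give the replicate number and horizontal lines the mean of 3 libraries. The tallest ileal values of Abca1, Abcg1, Abcg5, Abcg8 and Mylip belong to floxed mice given GW3965, whose replicate 3 is the lowest of its group for all 7 genes.

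In the ileum of floxed mice, GW3965 was accompanied by a rise of 6 of the 7 genes, led by Abca1 at 6.28-fold, with Abcg5, Abcg1, Mylip and Abcg8 between 4.24 and 4.81-fold and Lpcat3 at 1.73-fold. Of all genes tested in this comparison, 14.7% rose and 20.9% fell (35.6% called). In Villin-Cre ileum 6 rose and 1, Arl4c, fell, against 21.5% of all genes that rose and 31.1% that fell (52.5% called), and the rises of Abca1, Abcg1, Abcg5, Abcg8 and Mylip were smaller there. The difference between the genotypes in the response was called for 6 of the 7 genes, all with the smaller or more negative response in Villin-Cre mice, against 18.4% of all genes called in that direction and 33% in either. These 6 include Abca1, the gene deleted in Villin-Cre epithelium, so its entry is not independent of the genotype. The median change of the 7 genes was 2.16 in floxed and 1.16 in Villin-Cre ileum, beside medians of -0.08 and -0.11 over all genes tested.

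Abca1 is both the deleted gene and a gene that LXR switch on. A lower level in Villin-Cre ileum does not alone verify the genotype labels. It was lower in Villin-Cre liver too, with vehicle means of 225 CPM against 335 CPM in floxed liver. The ileal values of Abca1 with vehicle were 59.9, 57.4 and 54.2 CPM in floxed mice and 25.7, 30.6 and 28.5 CPM in Villin-Cre mice. With GW3965 they were 428, 438 and 251 CPM in floxed mice and 53.7, 53.7 and 54.0 CPM in Villin-Cre mice. The 4 groups did not overlap, and Villin-Cre mice given the agonist stayed just under floxed mice given vehicle. Abca1 (ENSMUSG00000015243, chr4:53030787-53159895, minus strand in GRCm38) rose by 2.65 ± 0.14 in floxed ileum (adjusted p 4.2e-10) and by 0.92 ± 0.14 in Villin-Cre ileum (adjusted p 4.3e-05). The responses differed by -1.73 ± 0.20 (adjusted p 5.9e-06). Reads were summed over the whole gene, so exons that the deletion spares and cells without Villin are included, and in bulk tissue fewer expressing cells and less RNA per cell cannot be told apart. Without the library that stands apart, the floxed rise was 2.91 ± 0.068.

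Per kilobase of exon, Abcg1 had the lowest level of the 4 transporters in the ileum, 1.03 ± 0.132 CPM in floxed mice with vehicle and 5.09 ± 1.10 CPM with GW3965 (SD, n = 3). Floxed ileum held 6.47, 7.76 and 8.35 CPM with vehicle and 41.7, 41.9 and 27.8 CPM with GW3965. Villin-Cre ileum held 7.30, 6.60 and 7.64 CPM with vehicle and 10.5, 8.54 and 9.43 CPM with GW3965. The vehicle groups overlapped, and with GW3965 every floxed library lay above every Villin-Cre library. Abcg1 (ENSMUSG00000024030, chr17:31057675-31117988, plus strand) rose by 2.21 ± 0.15 in floxed ileum (adjusted p 7.3e-09), and the response in Villin-Cre ileum was lower by -1.84 ± 0.21 (adjusted p 5.3e-06). The Villin-Cre change of 0.38 ± 0.15 lay at the edge of the threshold (adjusted p 0.047) and was lost with no filter (0.082), with a pseudocount of 2 (0.064), with voom on recovered reads (0.19) and without any 1 of 5 of the 6 Villin-Cre libraries (0.058 to 0.16).

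Abcg5 and Abcg8, the partners of the sterol pump, rose together in both genotypes. Abcg5 stood at 100.1, 96.1 and 93.2 CPM in floxed ileum with vehicle and at 487, 513 and 406 CPM with GW3965. In Villin-Cre ileum it stood at 116, 114 and 119 CPM with vehicle and at 284.5, 286 and 294 CPM with GW3965. The 4 groups did not overlap, with Villin-Cre above floxed under vehicle and below it under GW3965. Abcg5 (ENSMUSG00000040505, chr17:84658234-84683011, minus strand) rose by 2.27 ± 0.069 in floxed ileum (adjusted p 3.3e-13) and by 1.30 ± 0.069 in Villin-Cre ileum (adjusted p 9.5e-11).

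Its partner Abcg8 held 105, 112 and 115 CPM in floxed ileum with vehicle and 494, 505 and 420 CPM with GW3965. Villin-Cre libraries of Abcg8 held 128, 126 and 130 CPM with vehicle and 310, 306 and 301 CPM with GW3965. Again the 4 groups stood apart in the same order as for Abcg5. Abcg8 (ENSMUSG00000024254, chr17:84676302-84700333, plus strand) rose by 2.09 ± 0.063 in floxed (adjusted p 3.3e-13) and by 1.26 ± 0.063 in Villin-Cre ileum (adjusted p 4.8e-11). Among all 18656 genes ranked by p in floxed ileum, Abcg8 was number 10 and Abcg5 number 12, while Abca1, with the larger change but the wider spread, was number 112. The responses in Villin-Cre mice were lower by -0.96 ± 0.097 for Abcg5 (adjusted p 1.2e-06) and by -0.83 ± 0.089 for Abcg8 (adjusted p 2.1e-06).

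The 2 genes overlap on opposite strands in 82 exonic bases, and no source used here states how strand was handled in counting, so reads from those bases cannot be assigned. Per kilobase of exon, the Abcg5 level was 1.21 ± 0.098 times that of Abcg8 in floxed ileum with vehicle and 1.37 ± 0.034 times with GW3965 (mean ± SD, n = 3). In Villin-Cre ileum the ratio was 1.26 ± 0.0084 with vehicle and 1.30 ± 0.043 with GW3965. In the liver it was 0.994 ± 0.015 and 0.942 ± 0.064 in floxed mice (vehicle, then GW3965) and 1.09 ± 0.065 and 0.999 ± 0.016 in Villin-Cre mice. Over single libraries the ratio ran from 1.12 to 1.404 in the ileum and from 0.870 to 1.16 in the liver.

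**Figure D2:**
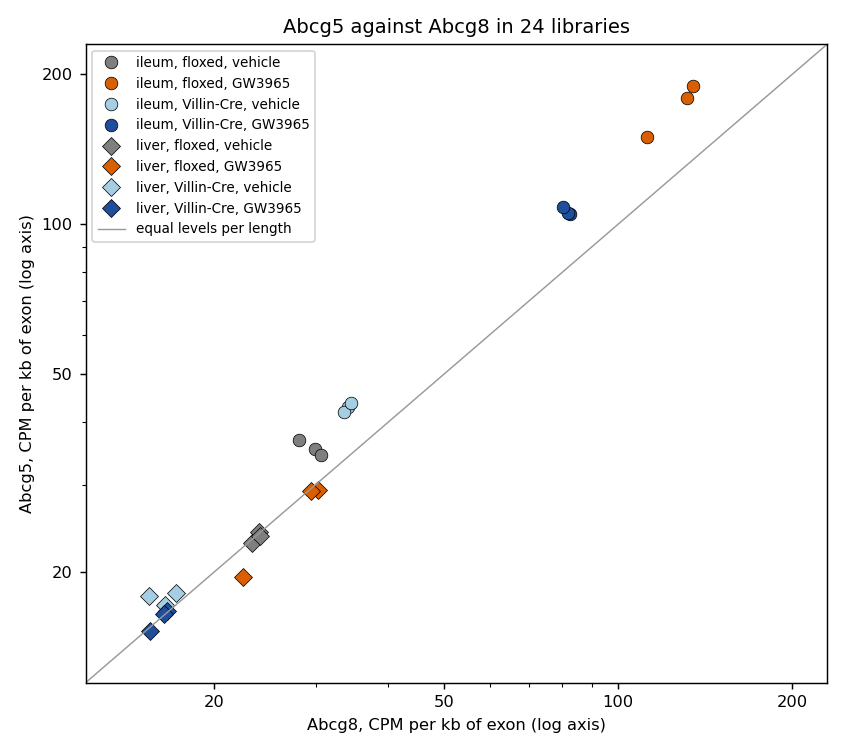
Abcg5 against Abcg8 in each of the 24 libraries, both in CPM per kilobase of exon on log axes; circles are ileum, diamonds liver, colours the 4 groups, and the line marks equal levels per length. Liver libraries lie along the line and ileal ones above it, and the floxed ileum with GW3965 is highest on both axes.

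Mylip, which limits LDL receptor rather than exporting sterol, showed the same order of ileal groups as Abcg5. Floxed ileum held 16.6, 15.9 and 15.1 CPM with vehicle and 78.9, 77.0 and 63.5 CPM with GW3965. Villin-Cre ileum held 20.9, 18.6 and 18.1 CPM with vehicle and 43.1, 46.4 and 44.1 CPM with GW3965. No 2 of these groups overlapped. Mylip (ENSMUSG00000038175, chr13:45389742-45412022, plus strand) rose by 2.16 ± 0.089 in floxed (adjusted p 1.2e-11) and by 1.19 ± 0.089 in Villin-Cre ileum (adjusted p 6.8e-09), a difference in response of -0.97 ± 0.13 (adjusted p 1.7e-05). Over the 12 ileal libraries the log2 values of Mylip and Abcg5 had a Pearson r of 1.00, against 0.79 for Mylip and Abca1. These values are a description, since libraries of 4 groups make up the points.

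Lpcat3, which places polyunsaturated fatty acids into phospholipids of cell membranes, was the exception among the genes that rose. Its values in floxed ileum were 158, 155 and 164 CPM with vehicle and 302, 325 and 214 CPM with GW3965. In Villin-Cre ileum they were 132, 133 and 135 CPM with vehicle and 302, 291 and 299 CPM with GW3965. The agonist groups of both genotypes overlapped, and the vehicle groups did not. Lpcat3 (ENSMUSG00000004270, chr6:124663027-124704418, plus strand) rose by 0.79 ± 0.10 in floxed (adjusted p 1.2e-05) and by 1.16 ± 0.10 in Villin-Cre ileum (adjusted p 5.4e-08). The difference of 0.36 ± 0.14 between the responses was not called (adjusted p 0.066), but was called without any 1 of the floxed GW3965 libraries, at 0.18 to 0.48. Its exons share 334 bases with those of Emg1 on the opposite strand.

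Arl4c, a small GTPase of the ARF-like group that LXR induce in macrophages, went another way. It held 11.2, 13.6 and 9.98 CPM in floxed ileum with vehicle and 25.5, 25 and 7.23 CPM with GW3965. Villin-Cre ileum held 8.17, 10.2 and 8.56 CPM with vehicle and 4.96, 4.33 and 3.65 CPM with GW3965. In floxed mice the library that stands apart lay below every vehicle library and the other 2 well above them. Arl4c (ENSMUSG00000049866, chr1:88673125-88702221, minus strand) changed by 0.52 ± 0.32 in floxed ileum, which was not called (adjusted p 0.23). Without that library all 7 genes were called higher. In that fit 7353 of 18656 genes were called in either direction, and those called higher were not counted separately (14.7% rose with all libraries). Arl4c then changed by 1.10 ± 0.15. In Villin-Cre ileum it fell by 0.98 ± 0.32 on the log2 scale (adjusted p 0.016), a call lost with voom (0.12), without Villin-Cre vehicle replicate 2 (0.061) and without Villin-Cre GW3965 replicate 3 (0.063), and the responses differed by -1.50 ± 0.45 (adjusted p 0.017).

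With close libraries averaged, the floxed rises of Abca1, Abcg5, Abcg8 and Mylip and the Villin-Cre rises of Abcg5, Abcg8 and Mylip were called. Each Villin-Cre group then holds 1 unit, so its calls take their spread from the 2 units of floxed GW3965 and have no repeat of their own. The rises of Abcg1 and Lpcat3 in floxed mice, the other Villin-Cre changes and all differences between genotypes in the response were not called.

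Summed levels of cell type markers in the ileum differed between the same groups. The enterocyte list includes Apoa4, which is also on the list of partners of sterol efflux and uptake described below. The summed level of 10 enterocyte markers was 13648 to 13964 CPM in floxed mice with vehicle and 20853 to 21372 CPM with GW3965, and 17602 to 17962 and 33287 to 33907 CPM in Villin-Cre mice. Smooth muscle markers (6 genes) summed to 5945 to 6035 and 2276 to 3426 CPM in floxed and to 6279 to 6598 and 799 to 808 CPM in Villin-Cre mice, again vehicle and then GW3965. Macrophage markers (10 genes) summed to 315 to 327 and 155 to 203 CPM in floxed and to 228 to 235 and 146 to 150 CPM in Villin-Cre mice. Adipocyte markers (6 genes) summed to 137 to 143 and 208 to 306 CPM in floxed and to 65.9 to 76.5 and 183 to 195 CPM in Villin-Cre mice. Fibroblast markers (6 genes) summed to 907 to 938 and 452 to 760 CPM in floxed and to 1302 to 1388 and 424 to 453 CPM in Villin-Cre mice. T cell markers (6 genes) summed to 36.1 to 40.3 and 43.5 to 55.8 CPM in floxed and to 60.5 to 67.8 and 24.7 to 30.5 CPM in Villin-Cre mice. B cell markers (4 genes) summed to 5.68 to 8.23 and 3.88 to 88.8 CPM in floxed and to 7.36 to 9.96 and 2.72 to 3.46 CPM in Villin-Cre mice. Their mean in floxed ileum with GW3965 was 58.5 ± 47.4 CPM (SD, n = 3), so the libraries of that group differed widely. No marker of these lists was at 0 in any ileal group, and their part in the changes of the 7 genes was not tested.

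**Figure D3:**
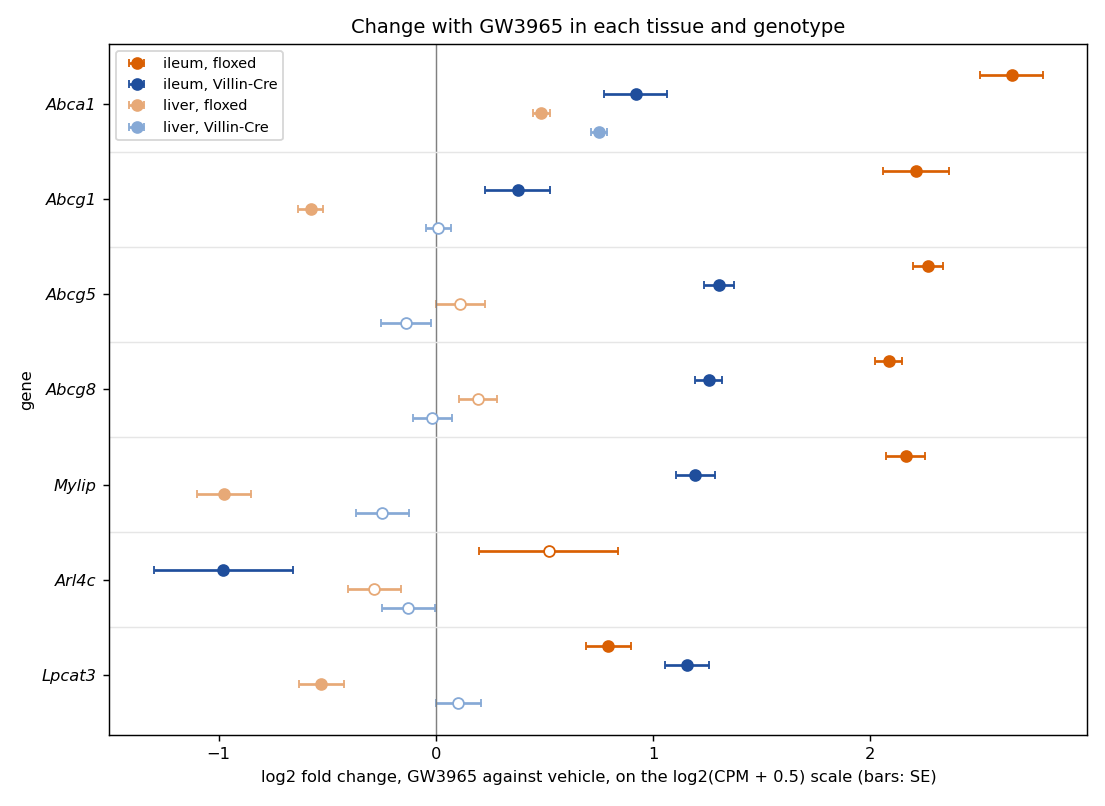
Log2 fold change with GW3965 against vehicle on the log2(CPM + 0.5) scale for the 7 genes in each tissue and genotype; points are limma estimates, bars SE, and open points are changes that were not called. Ileal changes of Abca1, Abcg1, Abcg5, Abcg8 and Mylip in floxed mice lie between 2.09 and 2.65, and all liver changes lie below 0.8.

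Set against floxed mice of the same treatment, Villin-Cre ileum differed in 4 of the 7 genes with vehicle (40.3% of all genes called) and in 6 with GW3965 (51.9%). Both counts include Abca1, the gene deleted in Villin-Cre epithelium. With vehicle Abca1 fell by 1.01 ± 0.14 on the log2 scale, to 0.50 of the floxed level (adjusted p 3.5e-05), a direction in which 30.7% of all genes were called. Abcg5 (0.27 ± 0.069), Abcg8 (0.21 ± 0.063) and Mylip (0.27 ± 0.089) rose, with adjusted p of 0.0050, 0.015 and 0.025, a direction in which 9.61% of genes were called. Abcg1 (-0.059 ± 0.15), Arl4c (-0.35 ± 0.32) and Lpcat3 (-0.25 ± 0.10) were not called, although a fit of only the 2 groups compared called Lpcat3 (adjusted p 0.00023) and Arl4c (0.0497). The call of Abcg8 was lost without floxed vehicle replicate 1 (adjusted p 0.076), and that of Mylip without floxed vehicle replicate 2 (0.053) or 3 (0.082) or Villin-Cre vehicle replicate 1 (0.12).

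With GW3965 the picture turned for the sterol pump and Mylip. Abca1 was lower in Villin-Cre than in floxed ileum by -2.74 ± 0.14 (adjusted p 2.5e-10), Abcg1 by -1.89 ± 0.15 (2.8e-08) and Arl4c by -1.85 ± 0.32 (1.3e-04). Abcg5 (-0.69 ± 0.069), Abcg8 (-0.62 ± 0.063) and Mylip (-0.70 ± 0.089) were lower as well, with adjusted p of 3.5e-07, 4.0e-07 and 5.6e-06, in a comparison where 38.3% of all genes were called lower. Lpcat3 did not pass (0.11 ± 0.10, adjusted p 0.39). With close libraries averaged none of the vehicle differences was called, and with GW3965 those of Abca1 (adjusted p 0.026) and Abcg1 (0.037) were.

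Comparisons depend on the scaling between libraries, most of all those between genotypes. Dividing each library by its median gene ratio (rescaling) shifted the all-gene median by 0.22 with vehicle and 0.24 with GW3965 in the ileum, and by -0.25 and -0.21 in the liver. After it, the upward part of all calls between genotypes in the ileum went from 23.8% to 58.1% with vehicle and from 26.1% to 52.2% with GW3965. On that scale the ileal difference was -0.76 and -2.46 for Abca1, 0.52 and -0.41 for Abcg5, 0.45 and -0.34 for Abcg8, and 0.51 and -0.42 for Mylip (vehicle, then GW3965), in the same directions. Abcg1 with vehicle changed sign to 0.17 without being called, and Lpcat3 with GW3965 reached 0.39 and was called. For GW3965 against vehicle the upward part of all calls went from 41.2% to 53.5% in floxed ileum, from 34.5% to 46.4% in floxed liver and from 23.98% to 59.9% in Villin-Cre liver.

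**Figure D4:**
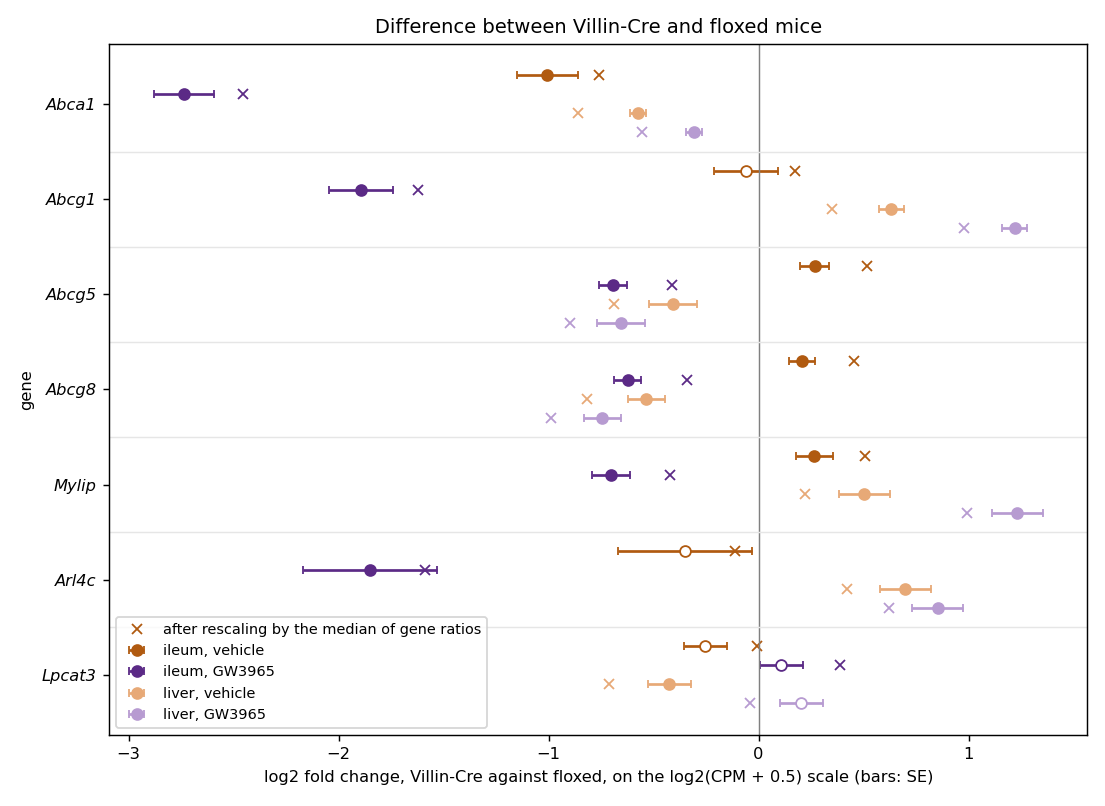
Log2 difference of Villin-Cre against floxed mice on the log2(CPM + 0.5) scale for the 7 genes in each tissue and treatment; circles are limma estimates with bars of SE, open where not called, and crosses give the value after rescaling by the median of gene ratios. Abca1 lies below 0 in all 4 comparisons on both scales, and Abcg1, Mylip and Arl4c are lower in ileum with GW3965 and higher in liver, where Mylip with vehicle was not called after rescaling.

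In the liver the same dose went with a rise of Abca1 in both genotypes, and no other member was called higher in either in the fit over all 12 liver libraries. Floxed liver had 1 member higher, Abca1, and 3 lower, Abcg1, Mylip and Lpcat3, where 10.4% of all genes rose and 19.7% fell (30.1% called). Villin-Cre liver had Abca1 alone, where 2.85% of all genes rose and 9.03% fell (11.9% called). The response differed between genotypes for Abca1, Abcg1, Mylip and Lpcat3, each more positive in Villin-Cre mice, where 10.2% of genes were called in that direction, 9.7% in the other and 19.9% in either.

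Abca1 with vehicle stood at a higher CPM in every liver library than in any ileal one, although levels in the 2 tissues come from separate tables and were not tested against each other. Floxed liver held 327, 342 and 337 CPM with vehicle and 479, 467 and 464 CPM with GW3965. Villin-Cre liver held 225, 225 and 225 CPM with vehicle and 382, 379 and 377 CPM with GW3965. The 4 liver groups did not overlap. Abca1 rose by 0.49 ± 0.038 in floxed (1.4-fold, adjusted p 5.9e-07) and by 0.75 ± 0.038 in Villin-Cre liver (1.68-fold, adjusted p 6.4e-08). In Villin-Cre liver it was number 4 of 17520 genes by p. The responses differed by 0.27 ± 0.054 (adjusted p 0.0033).

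Abcg1 and Mylip fell with GW3965 in floxed liver. Abcg1 was at 34.5, 35.9 and 33.3 CPM with vehicle and 22.6, 22.0 and 24.5 CPM with GW3965 in floxed liver, groups that did not overlap, and fell by 0.58 ± 0.059 on the log2 scale (adjusted p 6.2e-06). In Villin-Cre liver it was at 53.0, 53.8 and 54.6 CPM with vehicle and 51.9, 56.7 and 54.2 CPM with GW3965, overlapping groups with a change of 0.012 ± 0.059. Mylip was at 23.4, 25.4 and 26.0 CPM and then 16.4, 10.6 and 10.98 CPM in floxed liver, with the library that stands apart nearest to vehicle, and fell by 0.97 ± 0.12 on the log2 scale (adjusted p 4.1e-05). In Villin-Cre liver Mylip was at 34.4, 37.0 and 35.3 CPM and then 30.7, 28.9 and 30.0 CPM, groups that did not overlap, and its change of -0.25 ± 0.12 was not called in the fit over all liver groups (adjusted p 0.22) but was in a fit of only these 2 groups (0.0019). The responses differed by 0.59 ± 0.083 for Abcg1 (adjusted p 2.2e-04) and 0.73 ± 0.17 for Mylip (adjusted p 0.0092).

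Abcg5 and Abcg8 in floxed liver depended on 1 library. Abcg5 was at 65.5, 62.2 and 64.3 CPM with vehicle and at 53.0, 79.3 and 79.04 CPM with GW3965, where replicate 1, which stands apart, lay below the vehicle range and the others above it. Abcg8 was at 89.6, 87.2 and 90.3 CPM and then 84.3, 114 and 110 CPM, split the same way. Neither was called (0.11 ± 0.11 and 0.19 ± 0.089, adjusted p 0.50 and 0.12), but without that library both were, at 0.31 ± 0.053 and 0.33 ± 0.049. In floxed liver 7 of 7 members were then called, where 6823 of 17520 genes were called in either direction. Abca1, Abcg5 and Abcg8 were higher, and Abcg1, Mylip, Lpcat3 and Arl4c (-0.35 ± 0.12, adjusted p 0.020) were lower. The difference between genotypes in the response was then called for Abcg5 and Abcg8 as well, at -0.44 and -0.34. In Villin-Cre liver Abcg5 was at 48.6, 49.3 and 46.6 CPM and then 45.4, 44.8 and 41.3 CPM, and Abcg8 at 57.9, 64.4 and 61.7 CPM and then 62.2, 61.6 and 58.2 CPM, with neither called (-0.14 ± 0.11 and -0.015 ± 0.089).

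Lpcat3 was at 184, 179 and 175 CPM in floxed liver with vehicle and at 97.5, 138 and 143 CPM with GW3965, with no overlap and the lowest value in replicate 1. It fell by 0.53 ± 0.10 on the log2 scale (adjusted p 0.0015), and by 0.35 ± 0.038 without that library. Its level in Villin-Cre liver was 134, 130 and 136 CPM with vehicle and 145, 140 and 146 CPM with GW3965, a change of 0.10 ± 0.10 that was not called (adjusted p 0.57; 0.030 in a fit of only these 2 groups), and the responses differed by 0.63 ± 0.15 (adjusted p 0.0079). Arl4c was scarce and, with all libraries kept, was not called in either genotype. It stood at 10.5, 8.17 and 8.82 CPM, then 8.16, 8.09 and 6.12 CPM, in floxed liver and at 14.0, 16.0 and 15.2 CPM, then 13.5, 13.03 and 14.9 CPM, in Villin-Cre liver (-0.28 ± 0.12 and -0.13 ± 0.12). With close libraries averaged, no member was called for GW3965 or its difference between genotypes in the liver, and the change of Abca1 stayed at 0.49 and 0.75 with adjusted p of 0.68 and 1.00.

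Although Villin-Cre is meant to act in the intestinal epithelium, all 7 genes differed between the genotypes in liver with vehicle (56.8% of all genes called) and 6 with GW3965 (55.9%). Abca1 was lower in Villin-Cre liver, by -0.57 ± 0.038 with vehicle (adjusted p 1.7e-08) and -0.31 ± 0.038 with GW3965 (6.9e-06). Abcg5 was lower by -0.41 ± 0.11 and -0.66 ± 0.11, Abcg8 by -0.53 ± 0.089 and -0.74 ± 0.089, and Lpcat3, with vehicle, by -0.43 ± 0.10. Abcg1 was higher by 0.63 ± 0.059 and 1.22 ± 0.059, Mylip by 0.50 ± 0.12 and 1.23 ± 0.12, and Arl4c by 0.70 ± 0.12 and 0.85 ± 0.12. Lpcat3 with GW3965 (0.20 ± 0.10, adjusted p 0.11) was called without floxed GW3965 replicate 2 (0.28) or 3 (0.31). Of all liver genes, 45.1% were called higher and 11.7% lower with vehicle, and 40.9% and 15% with GW3965. Rescaling kept the directions of the called members, lost the call of Mylip with vehicle (0.22, adjusted p 0.18) and took the upward part of the calls over all genes from 79.3% to 49.3% with vehicle and from 73.1% to 50.6% with GW3965. With close libraries averaged, 1 of these 13 calls held, that of Abcg1 with GW3965 (adjusted p 0.015).

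Markers of other cells moved with genotype in the liver too. The 5 Kupffer cell markers include Cd5l, which is also on the list of other LXR targets described below. They summed to 416 to 425 CPM in floxed mice with vehicle and to 1045 to 1074 CPM in Villin-Cre mice with vehicle, and with GW3965 to 243 to 489 and 735 to 768 CPM. Macrophage markers (10 genes) summed to 667 to 674, 1310 to 1325, 434 to 616 and 927 to 961 CPM in the same order. Hepatocyte markers (10 genes) summed to 76596 to 79013, 53061 to 53525, 55583 to 67663 and 57967 to 59859 CPM. Fibroblast markers (6 genes) summed to 535 to 542, 1023 to 1043, 365 to 396 and 856 to 901 CPM. None of these markers was at 0 in any liver group. Smooth muscle markers (6 genes) summed to 27.3 to 29.1, 61.0 to 64.3, 23.7 to 27.6 and 68.0 to 72.4 CPM, and endothelial markers (5 genes) to 454 to 476, 493 to 502, 287 to 328 and 489 to 509 CPM. Adipocyte markers (6 genes, of which 1 passed the filter) summed to 55.5 to 56.8, 200.4 to 225, 8.20 to 36.8 and 176 to 183 CPM, with 2 at 0 in floxed liver with vehicle and 1 with GW3965. Enterocyte markers (10 genes) summed to 1955 to 2019, 3988 to 4097, 414 to 1492 and 3240 to 3502 CPM, with vehicle most of it Apoa4, which mouse liver also makes (group means of 1662 and 3742 CPM), and with up to 2 markers at 0 in a group. Vil1 averaged at most 1.47 CPM and Alpi at most 0.068 CPM in any liver group. The part of these lists in the levels of the 7 genes was not tested.

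The change with GW3965 was larger in ileum than in liver for 6 of the 7 genes in floxed mice, where 15.2% of 16322 genes were called in that direction and 29.1% in either, and for 4 in Villin-Cre mice (20.7%, with 22.1% in the other direction and 42.8% in either). In floxed mice the ileum minus liver difference was 3.14 ± 0.16 for Mylip and 2.79 ± 0.17 for Abcg1, both of which rose in ileum and fell in liver. It was 2.16 ± 0.17 for Abca1, 2.15 ± 0.14 for Abcg5, 1.89 ± 0.11 for Abcg8 and 1.32 ± 0.16 for Lpcat3, with adjusted p of 6.3e-07 or less for all 6. Arl4c (0.80 ± 0.39, adjusted p 0.13) was not called. In Villin-Cre mice the tissues differed for Abcg5 (1.44 ± 0.14), Mylip (1.44 ± 0.16), Abcg8 (1.27 ± 0.11) and Lpcat3 (1.05 ± 0.16), with adjusted p of 7.6e-06 or less. Abca1 (0.17 ± 0.17, adjusted p 0.45), Abcg1 (0.36 ± 0.17, 0.081) and Arl4c (-0.85 ± 0.39, 0.079) did not pass there. With close libraries averaged none of these differences was called, and with both libraries that stand apart left out the floxed difference of Abca1 was 2.44 ± 0.072 and that of Arl4c 1.45 ± 0.21, both called.

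Ordered by level, Abca1 was highest in floxed liver with GW3965, at 470.2 ± 8.03 CPM (SD, n = 3). Villin-Cre liver with GW3965 (379 ± 2.71), floxed ileum with GW3965 (372 ± 105) and floxed liver with vehicle (335 ± 7.81) followed, and neighbours among these 3 did not differ beyond their spread. Abcg5, Abcg8 and Mylip were highest in floxed ileum with GW3965 (468 ± 55.9, 473 ± 46.2 and 73.1 ± 8.38 CPM) and next highest in Villin-Cre ileum with GW3965 (288 ± 5.09, 306 ± 4.80 and 44.5 ± 1.69 CPM). Abcg1 was highest in both Villin-Cre liver groups (54.3 ± 2.37 and 53.8 ± 0.797 CPM), which overlapped. For Lpcat3 both GW3965 ileum groups led and overlapped, and for Arl4c the order was blurred, with each of the 6 highest groups within the spread of the next. Per kilobase of exon, Abcg5 in floxed ileum with GW3965 reached 173 ± 20.6 CPM and Abca1 35.9 ± 10.1 CPM, whereas in floxed liver with vehicle Lpcat3 (54.9 ± 1.38) and Abca1 (32.4 ± 0.753) were the most abundant of the 7.

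Nr1h3, which encodes LXR alpha, held 34.1 ± 1.67 and 37.0 ± 6.07 CPM in floxed ileum (vehicle, then GW3965) and 32.5 ± 2.30 and 45.4 ± 1.93 CPM in Villin-Cre ileum, where it rose by 0.48 ± 0.097 (adjusted p 4.9e-04). Nr1h2, LXR beta, ranged from 82.9 ± 1.84 to 98.8 ± 1.87 CPM over the ileal groups. Of 8 tested genes for receptors, partners and corepressors, 3 rose, 2 fell and 3 did not pass in floxed ileum with GW3965, where 14.7% of all genes rose and 20.9% fell. Rxra, the retinoid X receptor partner, rose by 0.44 ± 0.053 there. Ttc39b, whose loss stabilises LXR protein in mice, fell by 1.27 ± 0.11 on the log2 scale. None of these 8 genes was called in either genotype with close libraries averaged (adjusted p 0.27 for Rxra and 0.089 for Ttc39b in floxed, 0.31 for Nr1h3 in Villin-Cre ileum).

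Of 21 other LXR targets tested, 13 rose, 1 fell and 7 did not pass in floxed ileum (median 0.50, beside -0.08 over all genes), where 14.7% of all genes rose and 20.9% fell. In Villin-Cre ileum 5 rose, 10 fell and 6 did not pass (median -0.18, beside -0.11), where 21.5% of all genes rose and 31.1% fell. The response was more negative in Villin-Cre mice for 14 of them and more positive for 2, against 18.4% and 14.6% of all genes. Averaging close libraries left 1 called in floxed ileum, 3 in Villin-Cre ileum and none for the difference. Srebf1, the master regulator of fatty acid synthesis, stood at 83.55 ± 5.83 and 412 ± 138 CPM in floxed ileum and at 77.8 ± 5.025 and 82.8 ± 0.637 CPM in Villin-Cre ileum, a rise of 2.23 ± 0.17 in floxed mice and a difference in response of -2.14 ± 0.24 (adjusted p 3.4e-06). Scd1, the desaturase that makes monounsaturated fatty acids, rose in both genotypes, by 1.84 ± 0.056 and 1.09 ± 0.056. Fasn, fatty acid synthase, fell by 1.11 ± 0.086 on the log2 scale in Villin-Cre ileum. Both rises of Scd1 were also called with close libraries averaged. The rise of Srebf1 in floxed mice and the fall of Fasn in Villin-Cre mice were not called in that fit.

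Among 15 partners of sterol efflux and uptake, 7 rose and 3 fell in floxed ileum, and 5 rose and 4 fell in Villin-Cre ileum. That is 10 and 9 of 15, beside 35.6% and 52.5% of all genes called in the same comparisons. Apoa1, the acceptor that ABCA1 loads, rose by 2.16 ± 0.082 and 1.74 ± 0.082 (adjusted p 4.2e-12 and 2.3e-11), and Npc1l1, the sterol uptake transporter that works against ABCG5 and ABCG8, by 0.94 ± 0.045 and 0.96 ± 0.045. Of 7 tested enzymes that make or clear oxysterols, 3 rose and 1 fell in floxed and 4 rose and 2 fell in Villin-Cre ileum, with Cyp27a1, the sterol 27-hydroxylase, up by 1.23 ± 0.14 and 1.91 ± 0.14. Of 11 relatives of the members, 2 rose and 4 fell in each genotype, a share near that over all genes in Villin-Cre ileum. Abcg2, a drug and urate exporter, rose by 0.95 ± 0.070 in floxed ileum, and Lpcat4 by 0.46 ± 0.058 there and 1.64 ± 0.058 in Villin-Cre ileum. In that averaged fit the changes of Cyp27a1 (adjusted p 0.029) and Lpcat4 (0.017) in Villin-Cre ileum were called, and those of Apoa1 (0.072 and 0.058), Npc1l1 (0.12 and 0.067), Abcg2 (0.070), and of Cyp27a1 (0.14) and Lpcat4 (0.24) in floxed ileum, were not.

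In liver the desaturases Scd1 and Scd2 fell with GW3965 in floxed and rose in Villin-Cre mice, while Abca1 rose in both. Of 21 other LXR targets, 3 rose and 10 fell in floxed liver (median -0.32) and 7 rose and 2 fell in Villin-Cre liver (median 0.22), beside 10.4% and 19.7% of all genes in floxed and 2.85% and 9.03% in Villin-Cre liver. The response was more positive in Villin-Cre mice for 11 and more negative for 2, beside 10.2% and 9.7%. Scd1 was at 32816 ± 264 CPM with vehicle and 8365 ± 43.2 CPM with GW3965 in floxed liver, and at 10877 ± 70.6 and 20539 ± 282 CPM in Villin-Cre liver, a difference in response of 2.89 ± 0.10 (adjusted p 8.5e-10). Scd2 fell by 2.60 ± 0.041 on the log2 scale in floxed and rose by 0.38 ± 0.041 in Villin-Cre liver. Between genotypes with vehicle, 14 of the 21 were lower in Villin-Cre liver and 4 higher (14 and 3 after rescaling), beside 11.7% and 45.1% of all genes. In the same comparison 5 of 8 tested oxysterol enzymes were lower (5 after rescaling), with Cyp7a1, the rate-limiting enzyme of bile acid synthesis, at -3.75 ± 0.25 (adjusted p 1.9e-08). Averaging close libraries left 1 of the 21 and 1 of the 8 called there, Scd2 (adjusted p 0.038) and Cyp7a1 (0.037). For GW3965 in the liver the fall of Scd2 in floxed mice (0.024) was called in that fit, and the changes of Scd1 (0.72 and 1.00) and the genotype differences in response of both genes were not. Of 9 receptor genes 2 fell and none rose in floxed liver with GW3965, which turned to 4 that rose and none that fell after rescaling. In Villin-Cre liver 1 fell, and none after rescaling.

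The 5 genes whose ileal log2 values followed Abca1 most closely over the 12 libraries, out of 10383 compared, were Etl4 (Pearson r 0.99), Irs2 (0.98), Pik3c2b (0.96), Srebf1 (0.96) and Adipoq (0.96). The nearest member was Abcg1 (0.96). Those nearest to Abcg5 were Bach2 (0.99), Slc35f5 (0.99), Man1a (0.98), Plbd1 (0.98) and Ppp3ca (0.98), apart from Abcg8 and Mylip (both 1.00). In the liver, C8a (0.95), Lzts3 (0.95), Nat8f2 (0.93), Mup10 (0.93) and Slc17a3 (0.92) were nearest to Abca1, and Cyp4a32 (0.99), Slco1a4 (0.98), Cps1 (0.98) and Cyp2c38 (0.98) to Abcg5. Liver Abcg1 ran opposite to Abcg8 (-0.93) and with Mylip (0.92). All of these r describe points that share group, depth and library, and counts of the Mup, Cyp4a and Cyp2c families are uncertain because near-identical copies could split reads.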

How the data were processed

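RNA of ileum and liver was sequenced in 24 libraries, 3 in each of 8 groups taken from the labels. Per the labels' protocols, ribosomal RNA was removed (RiboErase) and random-primed libraries were read as pairs of 150 bases. The submitters' processing notes name the GRCm38 build with STAR 2.5.1a for alignment software, featureCounts 1.4.6-p5, Subread and bcl2fastq. Annotation release, strand setting and log formula were not given in the sources used. The authors deposited log2 values, 40757 entries per tissue, of which 276 repeated another and were dropped (40481 genes). The lowest value, shared by all libraries, stands for 0 reads. Subtracting it on the linear scale gave CPM in whole multiples of 1 read (tolerance 0.05 reads), from which reads and depth were recovered. Even numbers made up 66.7 to 70.4% of low ileal values and 65.5 to 68.4% of low liver values, so mates were counted singly and counting error is larger than the reads imply.

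Log2(CPM + 0.5) values were fitted by limma 3.58.1 (R 4.3.3) with an empirical Bayes trend and a mean for each group, jointly over the 12 libraries of each tissue (24 for the tissue difference), for genes of at least 0.5 CPM in at least 3 libraries, with p-values adjusted by Benjamini-Hochberg and a threshold of 0.05. The fit was run on simulated independent libraries with known changes. These held no close repeats and no library that stands apart, so they cannot give the error rate in these data. Comparisons share groups, so their results are not independent. The members, gene lists and most alternatives were chosen with earlier results of these data known. Named genes are the 7 members, up to 4 genes of lowest p per list and comparison, and the 5 most alike in each tissue to Abca1 and to Abcg5 (mean of at least 5 CPM, no predicted genes), of which 1 is not reported here. Exon lengths and coordinates come from GENCODE M21 (GRCm38), promoters from RefSeq (GRCm38.p6). Alternatives were rescaling, no filter, a pseudocount of 2, the deposited values, voom, only the groups compared, a replicate block, averaging of close libraries (under 4 times Poisson variance) and leaving out each library.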

Additional observations from a re-analysis of the deposited data

Results flagged for a closer look

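Floxed and Villin-Cre ileum responded differently to GW3965, by the test of the difference itself (Villin-Cre change minus floxed change, log2), for Abca1 (-1.73), Abcg1 (-1.84), Abcg5 (-0.96), Abcg8 (-0.83), Mylip (-0.97) and Arl4c (-1.50). Abca1 is the gene deleted in Villin-Cre epithelium, so its ileal entry is not independent of the genotype. In the liver the response differed for Abca1 (0.27), Abcg1 (0.59), Mylip (0.73) and Lpcat3 (0.63). The sign of the difference for Abca1, Abcg1 and Mylip was thus opposite in the 2 tissues. The 3-way difference was not tested.

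The response also differed between tissues (ileum change minus liver change, log2). In floxed mice this held for Mylip (3.14), Abcg1 (2.79), Abca1 (2.16), Abcg5 (2.15), Abcg8 (1.89) and Lpcat3 (1.32). In Villin-Cre mice it held for Abcg5 (1.44), Mylip (1.44), Abcg8 (1.27) and Lpcat3 (1.05). None of these 20 differences was called with close libraries averaged.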

How the results depend on the processing

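Over the alternatives that keep all libraries, 585 values for single members stayed on the same side of the threshold with the same direction, 60 lost their call, 10 gained one and 3 changed sign. Averaging close libraries made 51 of the 60 losses. It left 3 members called of 7 for GW3965 in Villin-Cre ileum, 2 of 6 for genotype in ileum with GW3965, 1 of 6 for genotype in liver with GW3965, and 0 for genotype with vehicle in either tissue, for GW3965 in the liver in either genotype, for the genotype difference in response in either tissue and for both tissue differences. In genes called it gave 137 of 6633 and 1260 of 9799 for GW3965 in floxed and Villin-Cre ileum, and 6 of 5265 and 0 of 2081 in floxed and Villin-Cre liver. Its residual spread rests on 1 pair of units per tissue, both in floxed GW3965, so a call lost there does not show that a change is absent. Where each group compared holds 1 unit, a call kept there has no repeat within those groups.

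Fitting only the groups compared gave 6 members in place of 4 for genotype in ileum with vehicle (adding Lpcat3 and Arl4c), 3 in place of 1 for GW3965 in Villin-Cre liver (adding Mylip and Lpcat3; 4818 genes in place of 2081), 7 in place of 4 for the tissue difference in Villin-Cre mice (adding Abca1, Abcg1 and Arl4c), and 3458 genes in place of 5265 for GW3965 in floxed liver. Signs reversed only where no call had been made: after rescaling, Abcg1 in ileum with vehicle between genotypes (0.17), Abcg8 with GW3965 in Villin-Cre liver (0.081) and Lpcat3 in liver with GW3965 between genotypes (-0.040). Leaving out 1 library reversed the same Abcg1 (range -0.16 to 0.015), Lpcat3 in ileum with GW3965 between genotypes (-0.075 to 0.23) and, with GW3965 in Villin-Cre liver, Abcg8 (-0.056 to 0.021; 0.014 without another library) and Abcg1 (-0.020 to 0.043). For these the cause was not tested.

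Leaving out libraries gave 4 to 7 members called for GW3965 in floxed liver, where genes called ranged from 4195 to 6823. All 7 were called without replicate 1 of the GW3965 group. For the genotype difference in response in the liver it gave 4 to 6, where genes called ranged from 2673 to 5718 (3479 with all libraries). For GW3965 in Villin-Cre liver, 1084 to 1286 genes were called in place of 2081. Within a tissue, same-numbered libraries of different groups deviated from their group means with correlations of -0.040 to 0.055 (ileum) and -0.026 to 0.031 (liver). Numbers thus showed no pairing between groups of the same tissue. Ileum was not compared with liver in this way, so whether equal numbers mark the same animal was not tested. The main fit of the tissue difference held no term for animal. With the replicate number as a block, 83 of 84 member results kept their call and direction, and Abcg1 with GW3965 in Villin-Cre ileum (0.38) lost its call (adjusted p 0.060).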
